A study of Macaca mulatta with 4 samples.

Results

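The genes described here are the 7 members of the glucocorticoid response measured in fetal cerebellar nuclei: the receptors NR3C1 and NR3C2, the enzymes HSD11B1 and HSD11B2, and the hormone-induced genes FKBP5, TSC22D3 and PER1. They are 7 of the 30807 genes of the deposited gene list. Of these, 6 were found by symbol, and PER1 by its Ensembl identifier, ENSMMUG00000021798, because the list gives that row no symbol. The study asked what an inflamed amniotic cavity does to the preterm cerebellum of the rhesus macaque. Nuclei came from the frozen cerebellum of 4 fetuses, each 1 library on the 10x Chromium platform, with unique molecular identifiers (UMIs) that count each RNA molecule once. The 2 Control fetuses, a female and a male of 130 days of gestation, received no intervention. The 2 LPS fetuses, a female of 131 days and a male of 133 days, were delivered 5 days after 1 mg of E. coli lipopolysaccharide had been injected into the amniotic fluid. Each library below is called by its group and sex, so sex and library cannot be told apart within a group, nor age within LPS. Both LPS fetuses were also older than both Controls, so treatment and gestational age cannot be told apart between the groups.

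Cortisol acts through the glucocorticoid receptor, encoded by NR3C1, and through the mineralocorticoid receptor, encoded by NR3C2, which binds it with higher affinity. Whether it reaches them depends on the cell: HSD11B2 turns cortisol into inactive cortisone, and HSD11B1 works in the other direction. The occupied receptor enters the nucleus and switches on genes such as FKBP5, a co-chaperone that lowers the affinity of the receptor for its ligand, TSC22D3, a leucine zipper protein also called GILZ, and PER1, a clock gene. In rodents HSD11B2 is known from the dividing granule cell precursors of the external granule layer, where it is described as a barrier that keeps glucocorticoids from the precursors.

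A total of 32565 barcodes with at least 500 genes passed as nuclei, and 22328 of them belonged to the granule lineage. The libraries held 34282015 to 61665690 UMIs, and the median nucleus held 4508 UMIs in Control female, 1882 in Control male, 4063 in LPS female and 2308 in LPS male. The female libraries also stood apart from the male ones in mitochondrial UMIs, at 0.211 to 0.263% against 0.0212 to 0.0315%, and in LPS male only 38.7% of all UMIs lay in nuclei. Pairs of libraries shared 16 to 21 barcodes. Free RNA was profiled in barcodes taken as empty droplets, and its level is given where each gene is described. In each library barcodes were ranked by UMIs, 3 times the number of nuclei were skipped, and the same number as the nuclei was taken next. All had under 500 genes. Their median depth was 300 UMIs in Control female, 196 in Control male, 226 in LPS female and 496 in LPS male. Whether all were empty was not tested. All levels are CPM, the UMIs of the gene in 1000000 UMIs of the class in that library, given in the order Control female, Control male, LPS female and LPS male. Long genes gather more intron reads, so levels were compared between cells and not between genes. The 7 genes, and 50 other genes of the pathway, were kept out of the genes used for clustering. Of the 24 clusters, 3 stayed unnamed, and 7 formed the granule lineage, in which 13 of 14 lineage markers passed 5 CPM in every library. Those 7 were put in order from early to late by their markers, and no trajectory was fitted. They were cycling precursors, committing cells, migrating cells, a cluster led by KIAA1217 and ERBB4 with no stage name, maturing cells led by CHRM3, maturing cells led by TRPC7, and mature cells. The cycling list summed to 4499 to 5201 CPM in cycling precursors and 453 to 524 CPM in committing cells, with 10 of 12 genes over 5 CPM in every library of both. Whether the committing cells include precursors between divisions was not tested.

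HSD11B2, the cortisol-inactivating enzyme, was highest in the first 3 granule stages, which held 78.3% of its UMIs in 21.9% of nuclei, and its peak was in the committing cells. In committing granule cells its level was 152, 137, 175 and 116 CPM. In cycling precursors it was 64.1, 55.0, 67.5 and 61.0 CPM, and in migrating granule cells 34.2, 31.7, 34.3 and 15.5 CPM. The ranges of these 3 stages did not overlap, and the committing cells were 2.34 times as high as the cycling precursors and 5.02 times as high as the migrating cells, where 5.42% and 20.2% of genes of at least 10 CPM were higher without overlap. From the KIAA1217 and ERBB4 cluster onwards the 4 libraries lay between 0.653 and 6.67 CPM. In empty droplets HSD11B2 was at 10.8, 12.4, 8.99 and 6.20 CPM, above these late values except for the 6.67 CPM of LPS male in the KIAA1217 and ERBB4 cluster. With free RNA subtracted at 20%, that cluster kept 1.29, 0.68, 1.29 and 6.79 CPM and mature cells 0.38, 0, 0 and 0 CPM, and the part of free RNA in the late values was not tested.

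The committing cells made up 8.90% of all nuclei and held 49.2% of the 2512 HSD11B2 UMIs, and the cycling precursors made up 5.05% and held 19.7%. Among 9632 genes of at least 10 CPM in either stage, HSD11B2 ranked 44 from the top by its rise from cycling precursors to committing cells. Against mature granule cells it ranked 7 of 9813 genes. A UMI of HSD11B2 was found in 38.5, 19.9, 40.5 and 22.1% of committing nuclei, at a median depth of 3415, 1548, 3120 and 2070.5 UMIs. In the deeper mature nuclei, at 4951, 2008.5, 4582 and 2893 UMIs, it was found in 1.28, 0.379, 0.820 and 0.276%. With every nucleus thinned to 1000 UMIs the shares were 16.5, 12.45, 17.1 and 9.97% of committing nuclei and 0.367, 0.202, 0 and 0.0691% of mature nuclei, where 0 of 365 nuclei allows a share of up to 0.822%, by counting error only.

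NR3C1, the glucocorticoid receptor, was lowest in migrating cells and highest in the last 3 stages. It stood at 130, 103, 144 and 99.7 CPM in cycling precursors, 69.0, 74.7, 107 and 131 CPM in committing cells and 51.4, 47.2, 57.5 and 82.7 CPM in migrating cells. The KIAA1217 and ERBB4 cluster held 167, 172, 166 and 143 CPM, 2.71 times the migrating cells and without overlap with them, as were 5.55% of genes. Maturing cells led by CHRM3 reached 594, 425, 601 and 286 CPM, those led by TRPC7 689, 440, 730 and 367 CPM, and mature cells 580, 421, 783 and 338 CPM. The CHRM3 cells were 2.95 times as high as the KIAA1217 and ERBB4 cluster (5.76% of genes higher without overlap) and the TRPC7 cells 9.32 times as high as the migrating cells (13.9%), while the last 3 stages overlapped one another. In these 3 stages both female libraries were above both male libraries, whatever the treatment. The first 4 stages were all below the NR3C1 level of empty droplets, which was 297, 332, 206 and 324 CPM. The part of free RNA in these low values was not measured nucleus by nucleus. With free RNA taken as 20% of UMIs and subtracted, the cycling precursors kept 88.1, 45.5, 128 and 43.7 CPM, the committing cells 11.9, 10.5, 82.0 and 82.2 CPM and the migrating cells 0, 0, 20.4 and 22.4 CPM.

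**Figure D1:**
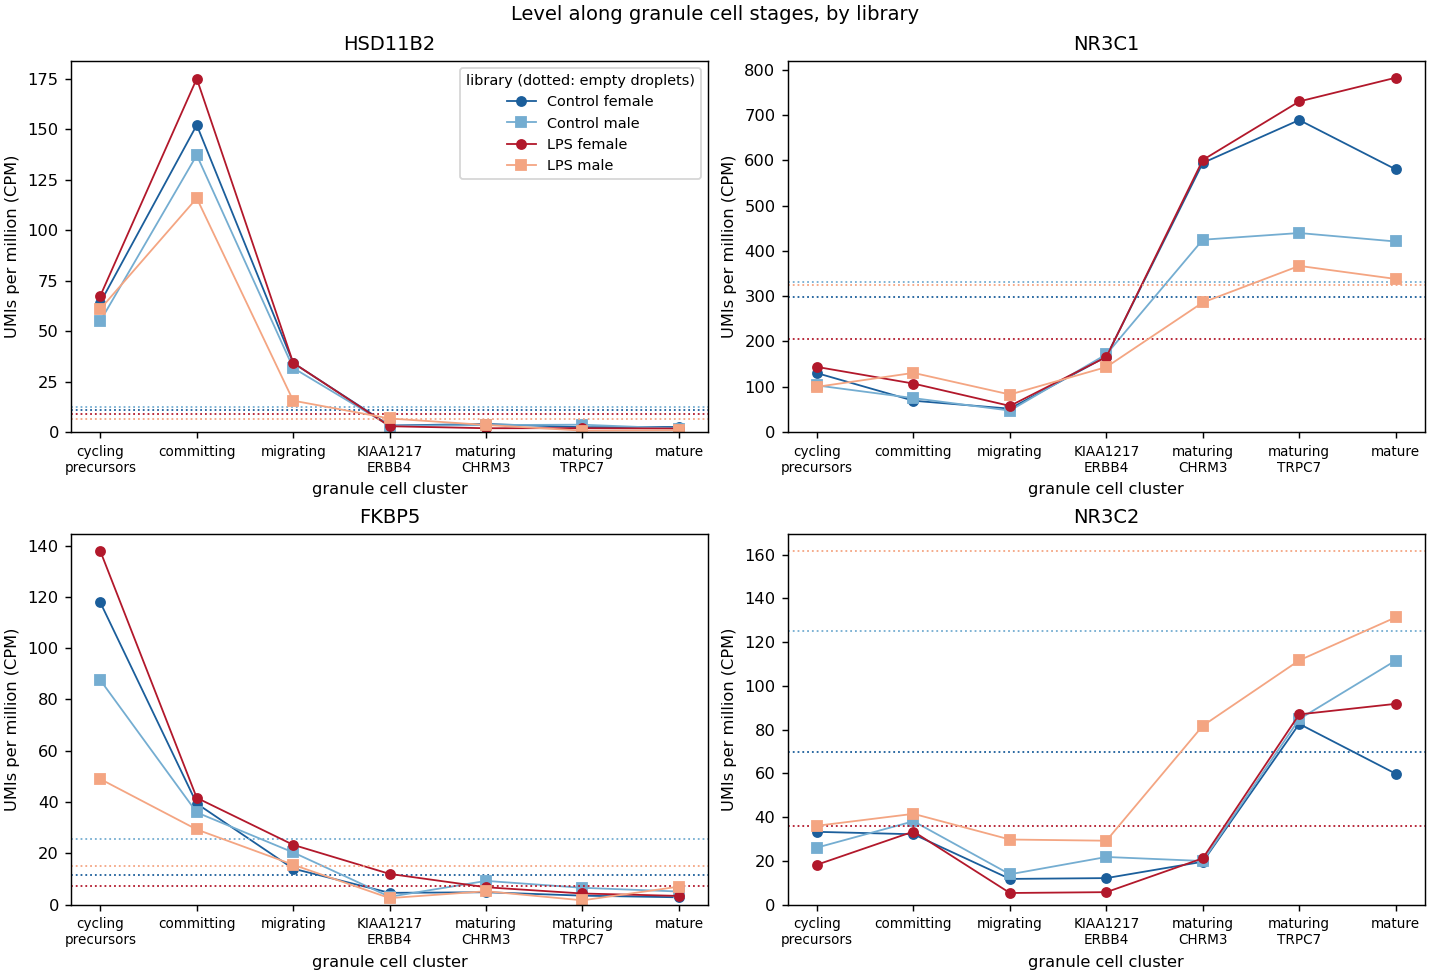
HSD11B2, NR3C1, FKBP5 and NR3C2 in the 7 granule clusters from early to late (horizontal axis), in CPM (vertical axis, own scale in each panel, starting at 0), with 1 line for each of the 4 libraries and dotted lines for empty droplets of the same library. HSD11B2 peaks in committing cells at 116 to 175 CPM and FKBP5 in cycling precursors at 48.9 to 138 CPM, while NR3C1 is at 47.2 to 82.7 CPM in migrating cells and at 338 to 783 CPM in mature cells.

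FKBP5, whose product holds the receptor in a state of low affinity, was highest in the granule lineage in cycling precursors, at 118, 87.5, 138 and 48.9 CPM. It was 39.4, 35.9, 41.6 and 29.3 CPM in committing cells and 14.0, 20.3, 23.3 and 15.5 CPM in migrating cells, and 1.63 to 11.9 CPM in the later stages. The committing cells were at 0.37 of the cycling precursors, without overlap, as were 7.21% of genes that were lower there. The LPS male library was the lowest of the 4 in the first 2 stages, and in empty droplets FKBP5 was at 11.5, 25.4, 7.07 and 15.0 CPM. From committing to migrating cells FKBP5 and NR3C1 were both lower in 4 of 4 libraries, with differences of -0.98 and -0.65 on the log2 scale. From cycling to committing cells FKBP5 was lower in 4 of 4 libraries, and NR3C1 in 3 of 4, with LPS male higher. In the KIAA1217 and ERBB4 cluster, where NR3C1 was above the migrating cells, FKBP5 was at 4.56, 3.02, 11.9 and 2.50 CPM, below empty droplets except in LPS female. NR3C2, the mineralocorticoid receptor, was at 5.27 to 41.5 CPM up to the KIAA1217 and ERBB4 cluster. The CHRM3 cells had 19.6, 19.9, 21.1 and 81.7 CPM. It was 82.6, 84.8, 86.9 and 112 CPM in the TRPC7 cells, 2.57 times as high and without overlap (2.79% of genes higher), and 59.8, 112, 91.8 and 131 CPM in mature cells. Its free RNA was at 69.9, 125, 36.0 and 162 CPM. The first 5 stages lay below it in every library, and only Control female in the TRPC7 cells and LPS female in the TRPC7 and mature cells lay above it.

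The comparison of cycling precursors with mature granule cells was tested within each library on log2(CPM + 1), with a two-sided exact sign-flip test over the 4 libraries and adjustment over the 7 genes. The exact test cannot go below p = 0.13 with 4 libraries, so no member could reach 0.05. HSD11B2 was higher in the precursors in 4 of 4 libraries, by 4.59 ± 0.38 (SD, n = 4) on the log2 scale, and FKBP5 in 4 of 4, by 4.12 ± 1.11 (SD, n = 4). NR3C1 was lower in 4 of 4, with a difference of -2.09 ± 0.29 (SD, n = 4), and NR3C2 in 4 of 4, with -1.75 ± 0.64 (SD, n = 4). All these reached the smallest exact p of 0.13 (adjusted 0.219). Libraries did not overlap for 2 members that were higher and 2 that were lower, beside 27.5% and 11.3% of the 9796 genes of at least 10 CPM. The remaining members gave no common direction. HSD11B1 differed by 0.08 ± 1.05 (SD, n = 4; exact p = 1.00), TSC22D3 by 0.20 ± 0.36 (SD, n = 4; exact p = 0.25) and PER1 by -0.67 ± 0.46 (SD, n = 4; exact p = 0.25).

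Of the other pathway genes, 18 reached 10 CPM in one of these stages, and their counts stand beside the same 27.5% of all genes higher and 11.3% lower without overlap. Among them 3 were higher in cycling precursors without overlap, the receptor chaperones PTGES3 and STIP1 and the steroid efflux pump ABCB1. Another 4 were lower: FKBP4, a co-chaperone of the receptor complex, CRHR1, a receptor of corticotropin-releasing hormone, and SGK1 and SESN1, which glucocorticoids are known to induce. SGK1, a kinase, had 56.7, 70.9, 48.4 and 61.9 CPM in cycling precursors and 346, 304, 330 and 282 CPM in mature cells. Like NR3C1, and unlike FKBP5, it was thus lower in the precursors. ABCB1 had 75.5, 91.2, 79.5 and 119 CPM in the precursors and 8.45, 19.4, 37.5 and 10.1 CPM in mature cells, below the 425, 597, 578 and 678 CPM of endothelial cells, where it is known from the blood-brain barrier. ABCB1 was also in the marker list from which the endothelial class was named. SGK1 and ABCB1 were picked from these genes after their values were seen.

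Across the ordered classes the mean of NR3C1 ran from 59.7 CPM in migrating granule cells to 710 CPM in fibroblasts. Levels were ordered over the 15 classes and granule clusters that had at least 20 nuclei in every library. NR3C1 was highest in fibroblasts, at 692, 626, 797 and 726 CPM, which was also the class with the least spread among the high ones. The TRPC7 granule cells, microglia, mature granule cells and endothelial cells followed with means of 557, 533, 530 and 511 CPM, and each overlapped its neighbours in the order. Microglia held 599, 440, 715 and 380 CPM and endothelial cells 688, 368, 634 and 355 CPM. Astrocytes had 433, 267, 468 and 333 CPM, Bergmann glia 284, 222, 300 and 236 CPM, and the PAX2 interneurons 197, 181, 250 and 221 CPM. Only the first 4 granule stages lay below the PAX2 interneurons in this order. Purkinje cells, with fewer than 20 nuclei in 1 library, had 156, 159, 219 and 159 CPM. Bergmann glia, PAX2 interneurons and Purkinje cells were below the empty droplets of their own library in 3 of 4 libraries, LPS female being the exception.

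**Figure D2:**
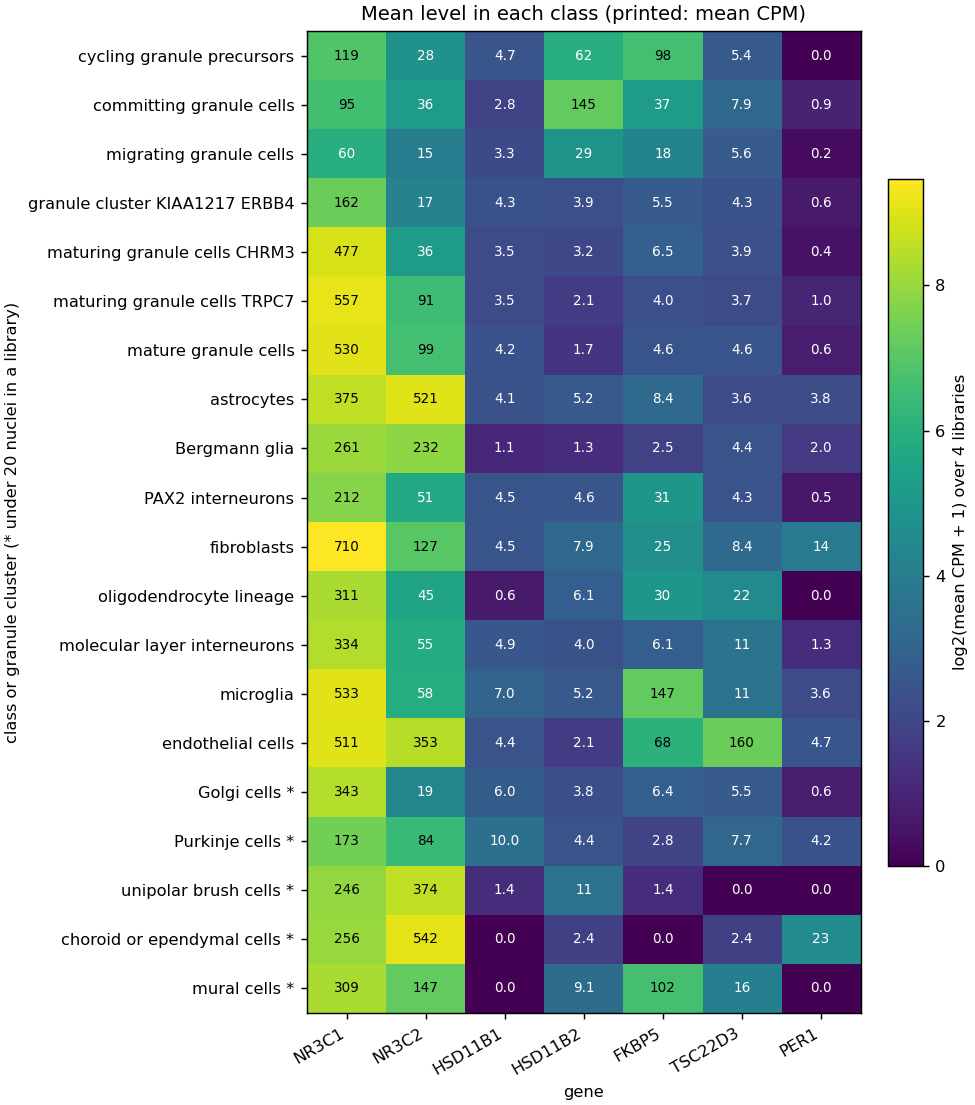
Mean level of the 7 genes (columns) in 20 classes and granule clusters (rows), coloured by log2(mean CPM + 1) over the 4 libraries and printed as mean CPM. NR3C1 is high in many rows, whereas HSD11B2 is high in committing granule cells, TSC22D3 in endothelial cells and NR3C2 in astrocytes and endothelial cells and, with few nuclei, in choroid or ependymal cells (542 CPM) and unipolar brush cells (374 CPM).

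Among the ordered classes NR3C2 had its highest means in astrocytes, endothelial cells and Bergmann glia. Astrocytes held 743, 298, 570 and 472 CPM, endothelial cells 344, 275, 584 and 209 CPM, and Bergmann glia 329, 182, 252 and 167 CPM. The ranges of neighbours in this order overlapped, so their order is not set. Astrocytes were 4.41% of nuclei and held 26.3% of all NR3C2 UMIs. The granule lineage, 68.6% of nuclei, held 34.0% of them, and its TRPC7 cells, 15.6% of nuclei, held 15.7%. The classes with few nuclei included 2 with high values. Unipolar brush cells had 545, 257, 505 and 190 CPM, and choroid or ependymal cells 782, 654, 714 and 19.0 CPM, from 95 UMIs in 39 nuclei.

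FKBP5 had its highest mean in the class named microglia, at 169, 150, 203 and 65.1 CPM, a range that overlapped that of the cycling precursors. F13A1 and STAB1 were among the leading genes of this class, and border macrophages were not separated from it. In this class 10.6% of nuclei were called doublets, and the endothelial list summed to 939 to 1744 CPM. Endothelial cells had 52.2, 98.0, 26.6 and 93.9 CPM, oligodendrocytes and their precursors 34.7, 35.4, 27.5 and 23.2 CPM, and PAX2 interneurons 28.2, 36.6, 43.6 and 16.0 CPM. Bergmann glia, at 1.39 to 3.99 CPM, and molecular layer interneurons, at 1.06 to 9.54 CPM, were near or below the level of empty droplets.

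TSC22D3, the anti-inflammatory zipper protein, was highest in endothelial cells, at 141, 163, 199 and 136 CPM. No other ordered class overlapped this range. These cells were 0.654% of nuclei and held 20.5% of the 884 TSC22D3 UMIs. The next class, the oligodendrocyte lineage, had 24.3, 6.43, 27.5 and 31.0 CPM, and no ordered class after it exceeded 19.8 CPM in any library. In empty droplets the gene was at 49.0 and 61.7 CPM in the female libraries and at 4.72 and 9.04 CPM in the male ones. The female droplets were thus above the female values of every class other than endothelial cells. With free RNA subtracted at 20% the oligodendrocyte lineage kept 18.1, 6.86, 18.9 and 36.5 CPM.

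HSD11B1 and PER1 were near the limit of detection. HSD11B1, the enzyme that restores cortisol, had 469 UMIs in all nuclei, and its class means ran from 0.611 to 7.01 CPM over the ordered classes. The highest of these means, in microglia, came from 6 UMIs of Control male. Empty droplets held 0.360, 10.0, 0.642 and 3.62 CPM, so no ordered class stood out from free RNA in every library. Purkinje cells, which were not ordered, held 16 of the HSD11B1 UMIs, 3.41% in 0.368% of nuclei. Their nuclei were deep, with a median of 4.19 times the median UMIs of their library, which raises their share of UMIs. They lay above the empty droplets of every library, from few UMIs in each. PER1 had 134 UMIs in all, and empty droplets held 0.360, 1.18, 0.642 and 0.517 CPM of it. Fibroblasts held 34 of them, at 4.72, 40.1, 4.24 and 7.98 CPM, and 27 of those were in Control male. Cycling precursors had none, and 3 counts over their 7859111 UMIs would be 0.382 CPM, which limits counting error only. The unnamed clusters were a low-UMI group and 2 groups of which 58.4 and 62.6% of nuclei were called doublets, and HSD11B2 was at 29.4 to 61.0 CPM in one of these. The low-UMI group held 340, 52, 131 and 1933 nuclei, so most were of LPS male, where their median was 763 UMIs. All unnamed clusters were counted in all nuclei and in the shares of nuclei.

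The genes most like each member except PER1, which had too few UMIs, were ranked across the 20 classes and clusters. The measure was Pearson's r of log2(CPM + 1), among 11656 genes of at least 20 CPM in some class. The points share libraries and depth, and r is given as a description. HSD11B2 was followed most closely by COMP (r = 0.924), a gene without symbol (ENSMMUG00000002493, 0.904) and MFAP4 (0.887), then ENSMMUG00000049258 (0.882) and ZXDC (0.874). FKBP5 went with FAF1 (0.918), IFI16 (0.899), UCP2 (0.890), HSD17B11 (0.874) and TMPO (0.865). For TSC22D3 these were RASGRP3 (0.861), ADAMTSL2 (0.860), LIMS2 (0.856), THSD1 (0.839) and TEK (0.836), of which TEK encodes the angiopoietin receptor of endothelium. NR3C1 had lower values, with PPM1H (0.770), PRKCE (0.751), IGF2BP2 (0.744), FCHSD2 (0.727) and RGL1 (0.725), and NR3C2 had ZFP92 (0.790), CFAP92 (0.782), SIPA1L1 (0.775), ASB3 (0.768) and ENSMMUG00000044639 (0.747). HSD11B1, at its few UMIs, had RUSC1 (0.879), SNAP47 (0.874), ATP7B (0.872), HMGN4 (0.859) and KCTD1 (0.858).

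The second question was whether LPS exposure moved any of these genes. Summed UMIs were compared with the edgeR quasi-likelihood test in 9 populations, with the Benjamini-Hochberg adjustment over all genes, and in 2 further granule stages chosen after the levels were seen. Calls needed an adjusted p below 0.1 together with a log2 fold change beyond 0.25 in either direction. No member was called in any of the 11 populations, in 50 tests, and the background was 0% of the 16135 genes in all nuclei and 0% in every other population. At an unadjusted p under 0.05 there were 37 genes in all nuclei (0.229%), and DESeq2 called 0 there. Over the populations this share ran from 0.175 to 1.80%, below the nominal level of 0.05, so the fit was conservative. With sex as a block 352 genes in all nuclei had an unadjusted p under 0.05 in edgeR, and 0 were called. The lack of calls therefore does not show that LPS changed nothing. Among the members, 2 of 50 tests in the reported fits had an unadjusted p under 0.05 in edgeR, NR3C2 in fibroblasts and NR3C1 in committing cells. In pooled populations such as all nuclei, fewer cells of a type and less RNA per cell cannot be told apart.

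In all nuclei NR3C1 was at 395, 275, 408 and 274 CPM, a log2 fold change of 0.02 (SE 0.37, edgeR adjusted p = 1.00). The groups overlapped, and both female libraries were above both male libraries. HSD11B2 was at 21.6, 20.1, 27.3 and 12.7 CPM, a change of -0.05 (SE 0.46, edgeR adjusted p = 1.00). FKBP5 was at 19.0, 21.8, 28.1 and 11.4 CPM, a change of -0.03 (SE 0.50, edgeR adjusted p = 1.00). For both genes LPS female was the highest library and LPS male the lowest. The unnamed low-UMI nuclei, mostly of LPS male, were among all nuclei, and their part in these levels was not tested. NR3C2 changed by 0.14 (SE 0.34), TSC22D3 by 0.25 (SE 0.52), HSD11B1 by -0.13 (SE 0.50) and PER1 by -0.95 (SE 0.94), all at an adjusted p of 1.00 in edgeR.

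**Figure D3:**
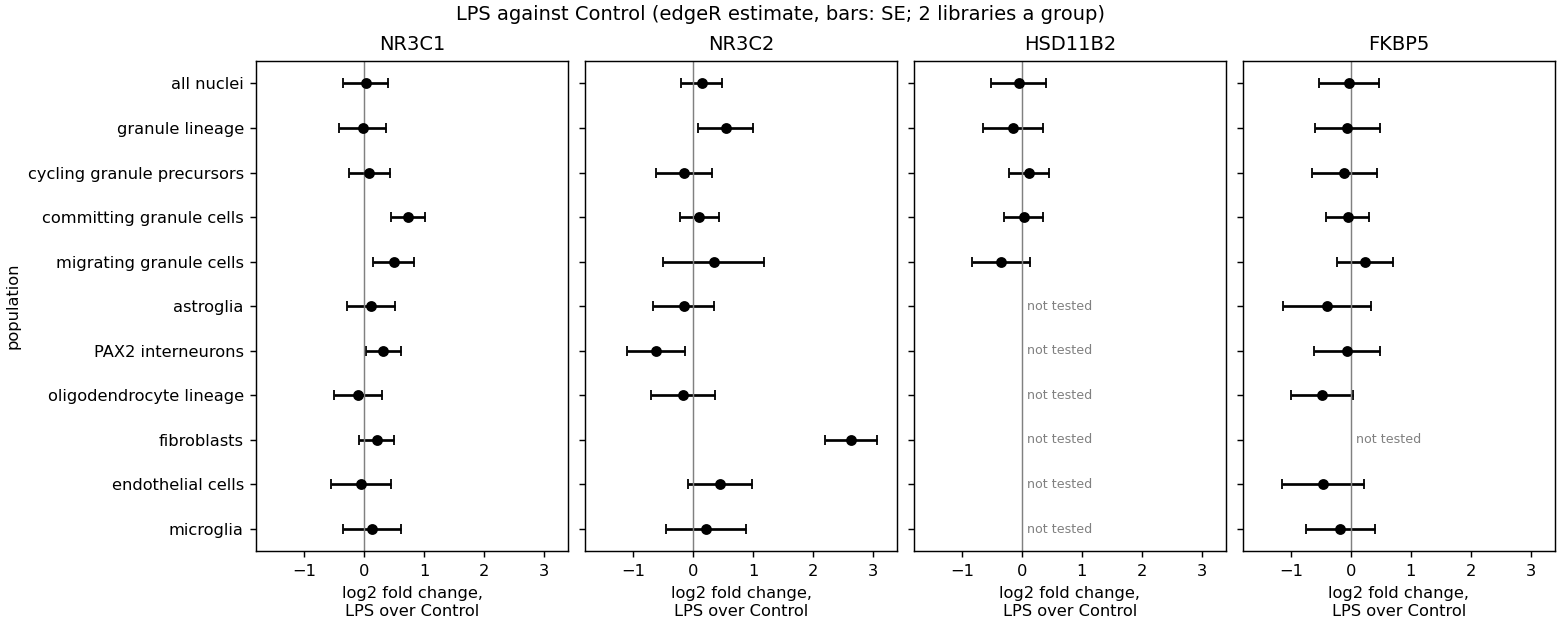
Log2 fold change of LPS over Control (horizontal axis) for NR3C1, NR3C2, HSD11B2 and FKBP5 in each population (vertical axis), as points with bars of 1 standard error from the edgeR fit of 2 libraries a group. Most estimates lie within 1 SE of 0, and NR3C2 in fibroblasts lies apart at 2.64.

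In the granule lineage the HSD11B2 levels of LPS lay on both sides of Control. Its level was 27.1, 27.7, 35.1 and 14.2 CPM, and the log2 fold change was -0.15 (SE 0.50, edgeR adjusted p = 1.00). The stages were not equally filled. Committing cells made up 13.4, 13.2, 16.5 and 7.89% of granule nuclei, and mature cells 8.02, 8.70, 7.13 and 33.7%. Within stages LPS male had 61.0 CPM in cycling precursors, inside the range of the other libraries, 116 CPM in committing cells, the lowest of the 4, and 15.5 CPM in migrating cells, where the others had 31.7 to 34.3 CPM. The log2 fold change was 0.12 (SE 0.34) in cycling precursors, 0.03 (SE 0.32) in committing cells and -0.35 (SE 0.49) in migrating cells, all at an edgeR adjusted p of 1.00. The male pair differed by -0.99 in migrating cells and by -0.91 in the whole lineage, and the part of the stage shares in the lineage value was not tested.

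**Figure D4:**
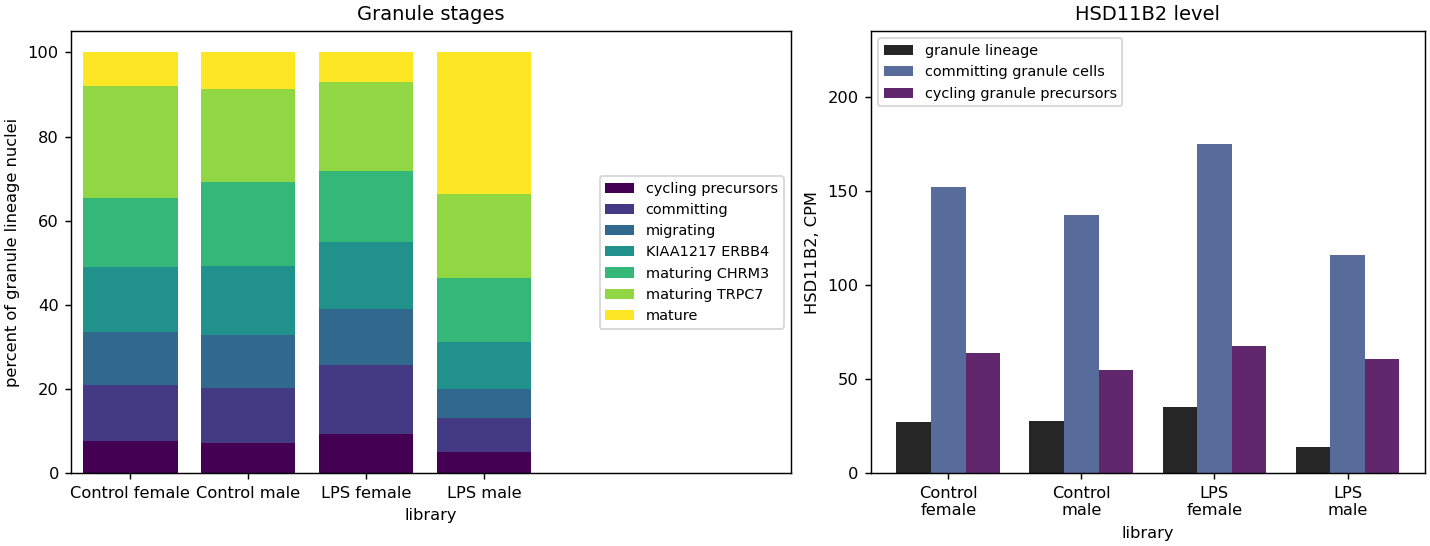
Left, the share of granule lineage nuclei in each of 7 clusters (stacked bars, percent) by library. Right, the HSD11B2 level in CPM in the whole lineage, in committing cells and in cycling precursors. LPS male has 33.7% mature cells and the lowest lineage level, 14.2 CPM, and its committing cells and cycling precursors are at 116 and 61.0 CPM.

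NR3C1 in committing cells was higher in both LPS libraries than in both Controls, at 107 and 131 against 69.0 and 74.7 CPM. The log2 fold change was 0.74 (SE 0.28), with an unadjusted p of 0.045 and an adjusted p of 1.00 in edgeR, from 219, 104, 285 and 107 UMIs. The female pair differed by 0.62 and the male pair by 0.80 on the log2 scale. In this stage 0.445% of 11022 genes had an unadjusted p under 0.05, and 8.91% were higher in LPS without overlap. At 1000 UMIs per nucleus a UMI was found in 6.64, 6.30, 10.0 and 12.7% of these nuclei. The stage was tested because of these levels, so the p is no independent evidence. All 4 values lay below those of empty droplets, and with free RNA subtracted at 20% the ratio of LPS to Control went from 1.65 to 7.34, an alternative chosen after seeing the data and not tested. Some marker lists of other cells were also higher in LPS, and others were not. The maturing granule list, whose class has more NR3C1 and of which 11 of 12 genes passed 5 CPM in every library, summed to 601 and 847 CPM in Control and to 870 and 1237 CPM in LPS. The astrocyte list (7 of 11) summed to 380 and 372 against 452 and 613 CPM, the Bergmann glia list (7 of 9) to 767 and 702 against 811 and 884 CPM, and a list of proliferating glia (8 of 8) to 602 and 589 against 731 and 692 CPM. The Bergmann glia and proliferating glia lists share the genes TNC and GRIA1. Lists of other classes with much NR3C1 overlapped between the groups. The mature granule list summed to 2141 and 4968 against 2849 and 4615 CPM, and the fibroblast list to 199 and 312 against 255 and 294 CPM. The microglia list summed to 61.4 and 78.3 against 75.7 and 56.1 CPM, and the endothelial list to 123 and 135 against 132 and 179 CPM. The part of other cells in the NR3C1 difference was not tested. In migrating cells the 2 LPS libraries were again above the Controls, with a change of 0.49 (SE 0.34, edgeR adjusted p = 1.00). In cycling precursors, at 0.08 (SE 0.34, edgeR adjusted p = 1.00), the groups overlapped.

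NR3C2 in fibroblasts gave the largest log2 fold change of the 50 tests. It was at 39.3 and 32.6 CPM in the Controls and at 283 and 152 CPM in LPS, from 25, 22, 200 and 19 UMIs. Both pairs moved the same way, by 2.81 on the log2 scale in females and 2.18 in males, and the fitted change was 2.64 (SE 0.43). The edgeR adjusted p was 0.722 from an unadjusted 0.000203, in a population where 156 of 8643 genes (1.80%) had an unadjusted p under 0.05, and 13.8% were higher in LPS without overlap. DESeq2 called it, at an adjusted p of 0.0304, as did edgeR without a filter on low counts (adjusted p = 1.8e-05) and without LPS male (adjusted p = 4.0e-05). Over all alternatives of this result the adjusted p ran from 1.8e-05 to 1.00. LPS male contributed 34 fibroblast nuclei, against 131, 203 and 146, and its 152 CPM was below the 162 CPM of its own empty droplets, whereas the 283 CPM of LPS female was above its 36.0 CPM. In this class 12.45% of nuclei were called doublets. With doublets removed 112, 178, 126 and 34 nuclei remained, and edgeR called 0 of 7643 genes. With free RNA subtracted at 20% the ratio of LPS to Control went from 6.03 to 11.97. In LPS female the 200 UMIs came from 52 of 146 nuclei, and in Control female the 25 UMIs from 12 of 131.

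Genes of other cell types were looked at in the same nuclei. All 10 fibroblast markers passed 5 CPM in every library, with sums of 13712 and 15023 CPM in Control and 11574 and 10941 CPM in LPS. The astrocyte list, of which 5 of 11 genes passed 5 CPM in every library, summed to 516 to 964 CPM in Control and 678 to 1072 CPM in LPS. The choroid or ependymal list, another class with much NR3C2, had 3 of 9 genes over 5 CPM in every library and FOXJ1 at 0. It summed to 115 and 151 CPM in Control and to 411 and 223 CPM in LPS. LPS female was the highest library for this list outside fibroblasts too. The sums were 94.7, 102, 371 and 90.2 CPM in the granule lineage and 36.1, 70.1, 365 and 48.8 CPM in microglia. The unipolar brush cell list, also of a class with much NR3C2, had 3 of 6 genes over 5 CPM in every library and LMX1A at 0, and summed to 398 and 337 CPM in Control and to 848 and 543 CPM in LPS. This list shares the gene NELL1 with the mature granule list. The mature granule list, with 10 of 14, summed to 1786 and 1711 CPM in Control and to 3018 and 5570 CPM in LPS. LPS male was also its highest library in astroglia, at 1889, 1913, 1690 and 4117 CPM. In microglia the same list summed to 834, 2006, 1223 and 7814 CPM. The Bergmann glia list, with 7 of 9 genes over 5 CPM, summed to 4217 to 6984 CPM in Control and 4995 to 5778 CPM in LPS, and the endothelial list, with 3 of 10, to 230 to 252 CPM in all 4. The part of these cells in the NR3C2 difference was not tested.

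**Figure D5:**
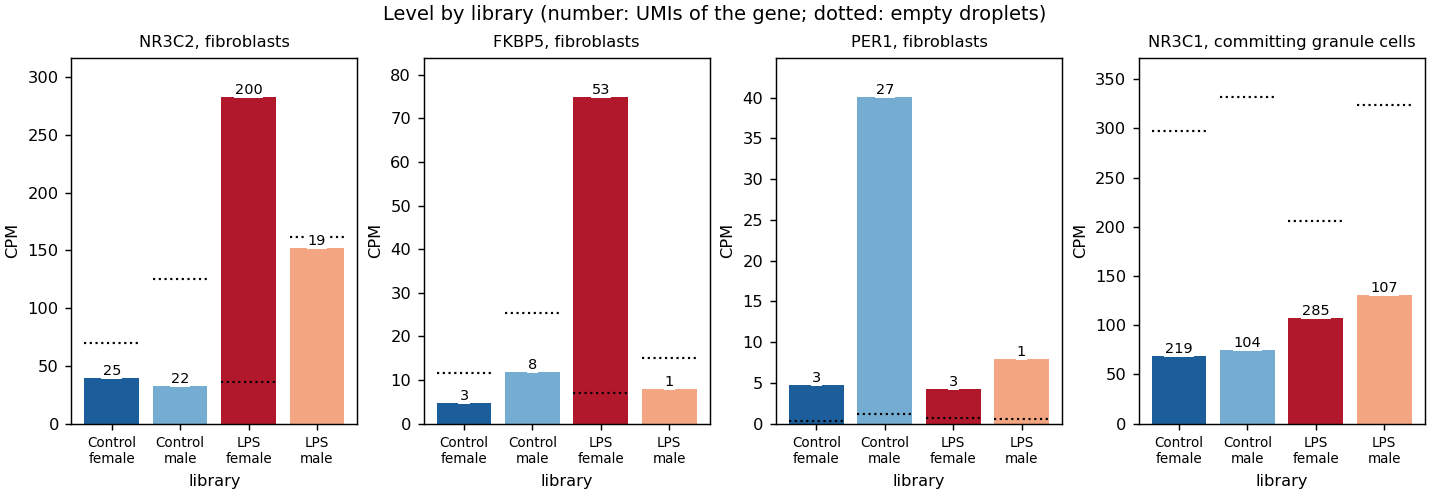
Bars show NR3C2, FKBP5 and PER1 in fibroblasts and NR3C1 in committing granule cells, in CPM by library, with the number of UMIs of the gene on each bar and dotted lines for empty droplets of that library. NR3C2 is at 283 and 152 CPM in LPS against 39.3 and 32.6 CPM in Control, FKBP5 and PER1 are each high in 1 library, and NR3C1 in committing cells is at 107 and 131 CPM in LPS against 69.0 and 74.7 CPM.

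FKBP5 and PER1 in fibroblasts were each carried by 1 library. FKBP5 was at 74.9 CPM in LPS female, from 53 UMIs, and at 4.72, 11.9 and 7.98 CPM in the other libraries. PER1 was at 40.1 CPM in Control male and at 4.24 to 7.98 CPM elsewhere. Neither passed the filter on low counts in the reported fit. Under alternatives edgeR called FKBP5 without that filter (log2 fold change 2.54, adjusted p = 0.093) and without LPS male (3.15, adjusted p = 0.010). It was not called without Control female (2.13, adjusted p = 0.775) or without Control male (3.36, adjusted p = 1.00), and without LPS female it did not pass the filter. PER1 was tested in 4 alternatives and called in none, with adjusted p from 0.544 to 1.00 in edgeR. NR3C1 was at 692 and 626 CPM in Control and 797 and 726 CPM in LPS, without overlap, and changed by 0.21 (SE 0.30, edgeR adjusted p = 1.00).

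Groups did not overlap in 7 of the 50 tests, of which 6 were higher in LPS. Of 77 pairs of gene and population these 50 passed the filter. Among the others the groups did not overlap in 5, all lower in LPS and of 3 to 22 UMIs: HSD11B1 in migrating cells, HSD11B2 in fibroblasts, HSD11B2 and PER1 in endothelial cells and PER1 in microglia. Of the genes that passed the filter, 7.74, 13.4, 13.5 and 14.6% were lower without overlap in these 4 populations. Beside those in committing cells and fibroblasts the tested ones were NR3C1 in migrating cells, where 9.56% of genes were higher without overlap, NR3C1 in PAX2 interneurons at 0.32 (SE 0.29; 9.54% of genes), TSC22D3 in the oligodendrocyte lineage (11.4% of genes) and, lower in LPS, FKBP5 in the oligodendrocyte lineage at -0.48 (SE 0.51; 9.89% of genes lower). For these 4 the edgeR adjusted p was 1.00. The remaining classes gave no call. TSC22D3 in endothelial cells changed by 0.22 (SE 0.41) and in the oligodendrocyte lineage by 0.71 (SE 0.67), where Control male alone was low. FKBP5 changed by -0.17 (SE 0.58) in microglia, the immune cells of the tissue, and by -0.46 (SE 0.69) in endothelial cells. NR3C2 changed by 0.45 (SE 0.54) in endothelial cells and by -0.16 (SE 0.51) in astroglia, the sum of astrocytes and Bergmann glia. The edgeR adjusted p was 1.00 for all of these. Without the 2 added stages and NR3C2 in fibroblasts, the 39 remaining tests ranged from -0.95 to 0.71 in log2 fold change, and their lowest unadjusted p was 0.248.

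The 50 further pathway genes, of which 46 had a row, gave no call either. In all nuclei 9 of 10 receptor partners and cofactors, 7 of 11 genes of steroid metabolism, transport and release and 22 of 29 targets were tested. Their median log2 fold changes were -0.04, 0.06 and 0.06, beside 0.01 over all genes tested. In the granule lineage 9, 5 and 20 were tested, with medians of -0.09, -0.10 and -0.0027 beside 0.01. In the other populations too, 0 of each list were called by edgeR. None of the following passed the threshold, and all had an edgeR adjusted p of 1.00. The 5 with the lowest unadjusted p in all nuclei were TXNIP, an inhibitor of thioredoxin, at -0.52 (SE 0.29), the chaperone HSP90AB1 at 0.63 (SE 0.37), CRHBP, which binds corticotropin-releasing hormone, at 1.44 (SE 0.89), the zinc finger gene ZBTB16 at -0.79 (SE 0.57) and FAM107A at 0.62 (SE 0.54). In the granule lineage they were TXNIP at -0.65 (SE 0.34), HSP90AB1 at 0.52 (SE 0.40), MAOA, a monoamine oxidase, at 0.70 (SE 0.59), the repressor BCL6 at 1.36 (SE 1.19) and HIF3A at -0.69 (SE 0.62). Among the targets tested in any population, TXNIP in cycling precursors had an unadjusted p of 0.023, at -1.28 (SE 0.42).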

How the data were processed

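The files hold raw UMI counts per gene and barcode for all barcodes of the 10x list, which the authors made with Cell Ranger (version 4 in the file headers) against the rhesus build Mmul_8.0.1 with intron reads counted. The free RNA removal and nucleus filters of the study are not in the deposited counts. Groups and sex come from the labels, with 2 libraries a group. The labels give 1 fetus for each library, so p-values measure the spread between 4 fetuses.

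Barcodes with at least 500 genes and under 5% mitochondrial UMIs were kept as nuclei, and 32565 remained. Empty droplets were profiled in each library, and free RNA was subtracted at 20% of UMIs as an alternative only. Nuclei were integrated and clustered with Seurat 5.3.0 (2000 genes, 30 dimensions, resolution 0.5), without the members and pathway genes. Clusters were named from marker lists, and a cluster with a low UMI number, with over 50% doublets (scanpy 1.11.5) or with under 3 raised markers got no name. Doublets were kept, and removed as an alternative. Classes with at least 20 nuclei in every library were put in order.

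UMIs were summed by library and population and tested with edgeR 4.0.16 (R 4.3.3; filterByExpr, TMM, quasi-likelihood) with Benjamini-Hochberg adjustment over all genes, and DESeq2 1.42.0 was an alternative. Levels are CPM with a pseudocount of 1 CPM on the log2 scale. The edgeR and sign-flip steps were run on simulated data with large known changes and no difference between the sexes. These runs do not cover the sex difference or the small changes of the real data. The members, the pathway lists and the marker lists were chosen with earlier results of these data known. The text names the 7 members, the 5 pathway genes of lowest p in all nuclei and in the granule lineage, and the 5 genes most like each member except PER1. Of the 50 pathway genes 46 had a row, and DUSP1, HSP90AA1, KLF9 and MT2A were not analysed here. Alternatives covered the normalization, the filters, sex as a block, doublets, free RNA, the pseudocount, the number of nuclei and each library left out.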

Additional observations from a re-analysis of the deposited data

Results flagged for a closer look

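For HSD11B2 and FKBP5 the LPS library lay above Control in females and below it in males by over 0.25 on the log2 scale in each sex, and the difference between the sexes was not tested, since each sex has 1 library a group. In all nuclei the log2 difference of LPS minus Control was 0.32 in females and -0.62 in males for HSD11B2, and 0.54 and -0.88 for FKBP5. In the granule lineage it was 0.36 and -0.91 for HSD11B2, and 0.50 and -0.93 for FKBP5. HSD11B1 also differed in direction, by 0.18 and -0.47 in all nuclei and 0.13 and -0.40 in the granule lineage, as did NR3C1 in all nuclei, by 0.044 and -0.0044. NR3C2 in both populations and PER1 in the granule lineage were lower in LPS in females and higher in males. Opposite directions of any size were found in 53.8% of the 16135 genes tested in all nuclei and in 54.8% of the 14873 in the granule lineage. The share of all genes with opposite directions of over 0.25 in each sex was not counted. The LPS male library held the fewest committing cells of its granule nuclei, 7.89%, and the most mature cells, 33.7%, and the part of this in the differences was not tested.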

How the results depend on the processing

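The higher level of HSD11B2 and FKBP5 and the lower level of NR3C1 and NR3C2 in cycling precursors against mature cells kept their direction under every alternative run. HSD11B1 in this comparison reversed to -0.073 with free RNA subtracted at 20%, and ran from -0.33 to 0.39 with 1 library left out. That subtraction moved the mean level to 815 CPM for NR3C1 in fibroblasts, to 179 CPM for HSD11B2 in committing cells and to 192 CPM for TSC22D3 in endothelium. In LPS against Control members were called under alternatives in fibroblasts only: NR3C2 by DESeq2 (2.64), without a filter on low counts (2.59) and without LPS male (2.98), and FKBP5, not tested in the reported fit, without a filter (2.54) and without LPS male (3.15). Some directions reversed. With sex as a replicate block PER1 was -0.12 in granule cells, TSC22D3 -0.0045 in cycling precursors and NR3C2 -0.016 in migrating cells. TSC22D3 in cycling precursors was -0.0047 without a filter, FKBP5 in migrating cells -0.068 with nuclei of at least 1000 genes, and with doublets removed NR3C2 was 0.12 in oligodendrocytes and FKBP5 0.12 in microglia. The number of genes called, 0 in the fits reported, became 5 in cycling precursors, 7 in committing cells, 8 in migrating cells, 13 in astroglia, 3 in PAX2 cells, 9 in oligodendrocytes, 38 in fibroblasts, 9 in endothelium and 6 in microglia without a filter. DESeq2 called 1 in migrating cells, 1 in oligodendrocytes and 4 in fibroblasts. The labels do not pair the libraries, and female minus male differences in Control and LPS correlated across genes at r = 0.39 to 0.74, where genes are not independent replicates. The replicate block called 3 in cycling precursors, 2 in committing cells, 1 in migrating cells, 1 in PAX2 cells and 24 in oligodendrocytes. With each library left out in turn (the lone library is assumed to vary like the other group) the number called ran from 0 to 19 in cycling precursors, 0 to 3 in committing cells, 0 to 1 in migrating cells, 0 to 73 in PAX2 cells, 10 to 55 in oligodendrocytes, 0 to 60 in fibroblasts, 0 to 61 in endothelium, 0 to 150 in microglia. The log2 fold changes that crossed 0 follow. NR3C1 ran from -0.29 to 0.41 in all nuclei, -0.34 to 0.39 in granule cells, -0.25 to 0.34 in cycling precursors, -0.22 to 0.56 in astroglia, -0.55 to 0.23 in oligodendrocytes, -0.64 to 0.59 in endothelium and -0.39 to 0.48 in microglia. NR3C2 ran from -0.15 to 0.54 in all nuclei, -0.16 to 1.01 in granule cells, -0.67 to 0.24 in cycling precursors, -0.044 to 0.23 in committing cells, -1.24 to 1.19 in migrating cells, -0.68 to 0.68 in astroglia, -0.95 to 0.29 in oligodendrocytes, -0.63 to 1.00 in endothelium and -0.96 to 0.77 in microglia. HSD11B1 ran from -0.57 to 0.20 in all nuclei, -0.52 to 0.16 in granule cells and -0.43 to 0.48 in cycling precursors. HSD11B2 ran from -0.71 to 0.39 in all nuclei, -0.94 to 0.36 in granule cells, -0.025 to 0.30 in cycling precursors, -0.34 to 0.30 in committing cells and -1.12 to 0.066 in migrating cells. FKBP5 ran from -0.82 to 0.48 in all nuclei, -0.95 to 0.49 in granule cells, -1.10 to 0.46 in cycling precursors, -0.38 to 0.16 in committing cells, -0.15 to 0.48 in migrating cells, -1.38 to 0.12 in astroglia, -1.06 to 0.48 in PAX2 cells, -1.34 to 0.33 in endothelium and -1.22 to 0.37 in microglia. TSC22D3 ran from -0.16 to 0.77 in all nuclei, -0.27 to 1.07 in granule cells, -0.38 to 0.20 in cycling precursors, -1.04 to 0.059 in committing cells, -0.44 to 0.47 in migrating cells, -0.059 to 1.97 in astroglia and -0.20 to 0.49 in endothelium. PER1 ran from -1.64 to 0.33 in all nuclei and -1.50 to 0.90 in granule cells. The causes were not tested. Each group has 2 fetuses of different sex, HSD11B1 and PER1 have few UMIs, and the male libraries are shallower per nucleus, which limits small classes.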
